A study of Rattus norvegicus with 12 samples.

Results

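The receptors and ligand described here were measured in bone of prepubertal female rats as 9 genes: the ion channels Trpv1 and P2rx3 of sensory nerve endings, the GDNF family receptors Ret, Gfra1, Gfra2 and Gfra3, the neurotrophin receptors Ntrk2 and Ntrk3, and the neurotrophin Bdnf. They were chosen by name, with earlier results of these data known. Their values are those of every probe set that the array annotation gives to exactly 1 gene symbol among these 9. The rule found all 9 genes, with 21 probe sets, among 14217 genes and 31042 probe sets tested. RNA came from the tibia of female Sprague-Dawley rats on postnatal day 34, with the marrow aspirated, after 14 days of treatment. By the labels feeding began on postnatal day 21, whereas the study's methods give weaning onto the diets on postnatal day 20. Each of the 12 Affymetrix arrays carried a pool of RNA from 2 to 3 rats. The CAS group ate an AIN-93G diet with casein as its protein. The SPI group ate the same diet made with soy protein isolate, which carries isoflavones with weak estrogenic action. The E2 group ate the casein diet and received 17β-estradiol at 10 µg/kg/d from a subcutaneous osmotic pump, and the SPI+E2 group received both. All 4 groups were females born to dams on the casein diet, with 3 arrays each. A bone pool holds matrix cells, residual marrow, vessels and the nerves that enter the tibia, so a value is an average over all of these. The p-values thus reflect how much pools vary, since single rats were not measured, the labels do not say whether pools came from separate litters, and precision is limited by having 3 arrays a group.

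The axons of pain-sensing and touch-sensing neurons enter bone with its blood vessels and are dense in the periosteum, while their cell bodies lie in the dorsal root ganglia outside the bone. Trpv1 is the cation channel opened by heat, acid and capsaicin, and P2rx3 is a channel subunit opened by extracellular ATP, and both are known as markers of pain-sensing neurons. Ret is the receptor tyrosine kinase of the GDNF family ligands, and it is engaged through co-receptors held to the membrane by a lipid anchor: Gfra1 for GDNF, Gfra2 for neurturin and Gfra3 for artemin. Ntrk2, also called TrkB, is the receptor tyrosine kinase for BDNF and neurotrophin-4, and Ntrk3, also called TrkC, is that for neurotrophin-3. These ligands are made by tissues that nerves grow into and keep the neurons that carry their receptors alive.

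The upstream sequences of Trpv1, P2rx3 and Ret are shown because these genes held the largest changes with SPI among the 9 on a single probe set and moved in the same direction with SPI and with E2. They are the 250 bases before the RefSeq gene start on the strand of the gene, in build GRCr8, at chr10:58349686-58349935 on the plus strand for Trpv1, chr3:90531316-90531565 on the minus strand for P2rx3 and chr4:153040557-153040806 on the minus strand for Ret. Capitals mark GGTCA (an arm of the estrogen response element), TGACG (an arm of the cAMP response element) or TATAAA (the TATA box) on either strand.
Trpv1: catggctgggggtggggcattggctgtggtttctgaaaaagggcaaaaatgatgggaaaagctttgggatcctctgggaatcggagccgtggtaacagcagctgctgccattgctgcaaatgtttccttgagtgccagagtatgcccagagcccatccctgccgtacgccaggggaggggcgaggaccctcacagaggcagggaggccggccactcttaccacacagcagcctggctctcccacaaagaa
P2rx3: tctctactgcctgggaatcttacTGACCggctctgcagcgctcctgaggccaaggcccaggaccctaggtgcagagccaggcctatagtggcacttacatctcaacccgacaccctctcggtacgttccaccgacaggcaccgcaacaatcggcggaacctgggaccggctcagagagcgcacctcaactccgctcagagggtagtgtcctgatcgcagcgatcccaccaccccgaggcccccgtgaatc
Ret: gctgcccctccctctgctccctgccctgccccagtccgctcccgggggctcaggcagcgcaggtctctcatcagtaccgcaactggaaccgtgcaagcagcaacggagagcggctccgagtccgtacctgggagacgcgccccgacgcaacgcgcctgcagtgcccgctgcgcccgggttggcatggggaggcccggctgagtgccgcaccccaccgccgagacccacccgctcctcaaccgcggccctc

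The only capitals fall in the P2rx3 window, where GGTCA lies on the opposite strand (read as TGACC) at position -227 from the gene start. GGTCA was present in 35.4% of the 33469 windows of this length in the reference table, TGACG in 18.2% and TATAAA in 12.9%. The E-box CANNTG, present in 65.5% of windows, was found 2 times in the Trpv1 window, 0 times in the P2rx3 window and 1 time in the Ret window. A window was held for 6 of the 9 genes, and none for Gfra2, Ntrk2 and Ntrk3.

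The deposited values are log2 values that the authors centred on each probe set's median over the 12 arrays, so they show differences between arrays and no level, and neither the genes nor the defining markers of bone can be ranked or called present or absent from them. The methods give the base as 2; with natural logarithms every difference below would be 1.4427 times as large in log2 units. Array medians lay between -0.0042 and 0.0072. SPI array 1 had the widest spread over probe sets (SD 0.211 against 0.128 to 0.164 on the other 11 arrays). Eif2s3y, a Y-linked gene, read -1.82, -1.89 and -2.20 on the CAS arrays and from -0.37 to 0.86 on the other 9, although all samples are labelled female, while the Y-linked Sry and 1 probe set of Uty showed no such split. The other Uty probe set stood apart in the opposite direction, between 0.14 and 0.22 on the CAS arrays and at most 0.03 on the other 9, and passed as lower with SPI (-0.42, limma adjusted p = 0.0229). Against CAS, Eif2s3y was 2.45 higher with SPI, 2.04 higher with E2 and 1.75 higher in the combined group (limma adjusted p = 1.03e-06, 6.25e-06 and 7.77e-05), and its part in the results was not tested. Every comparison against CAS rests on these 3 arrays, and so do the interaction of SPI and E2 and the F test over the 4 groups. The differences of SPI from E2 and of SPI+E2 from either alone do not. Their tests still use a spread estimated over all 12 arrays, those of CAS included.

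The soy diet and estradiol, each given alone, raised most of these receptors over CAS, and with the combination Ntrk2 alone passed the test. With SPI, 13 of the 21 probe sets rose and 0 fell, in 8 of the 9 genes, where 17.3% of all probe sets passed the test and 8.25% passed as higher. With E2, 11 rose and 0 fell, in 7 genes, against 9.35% and 4.99% of all probe sets. With SPI+E2, 2 rose and 0 fell, both of Ntrk2, against 8.48% and 4.14%. The median change of the 21 probe sets against CAS on the log2 scale was 0.40 for SPI, 0.42 for E2 and, for the combination, 0.12, and over all probe sets it was 0.01, -0.01 and 0.02. A change was called where the Benjamini-Hochberg adjusted p of limma, over all 31042 probe sets and 12 arrays, was under 0.05. These 3 comparisons share the CAS arrays. The genes were chosen with earlier results of these data known, so the counts describe them and are no independent test. In bulk bone, changes in the number of nerve fibres, in RNA per fibre and in the other cells of a pool cannot be told apart.

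All 3 treated arrays lay above all 3 CAS arrays in 15 of the 21 probe sets with SPI, in 15 with E2 and in 9 with SPI+E2. Over all probe sets this held in one direction or the other for 33.9%, 29.8% and 30.5%, and in the upward direction for 16.2%, 14.7% and 16.1%. Leaving out SPI array 1 gave 12 probe sets raised with SPI. When the probe sets of a gene were averaged, 7 of the 9 genes rose with SPI, 7 with E2 and 1, Ntrk2, with SPI+E2, while Gfra1 and Bdnf did not pass in any of these. Over all genes, 10.7%, 6.98% and 5.8% rose by this measure. The F test over the 4 groups passed for 12 of the 21 probe sets, in 8 genes, and for 25.2% of all probe sets.

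**Figure D1:**
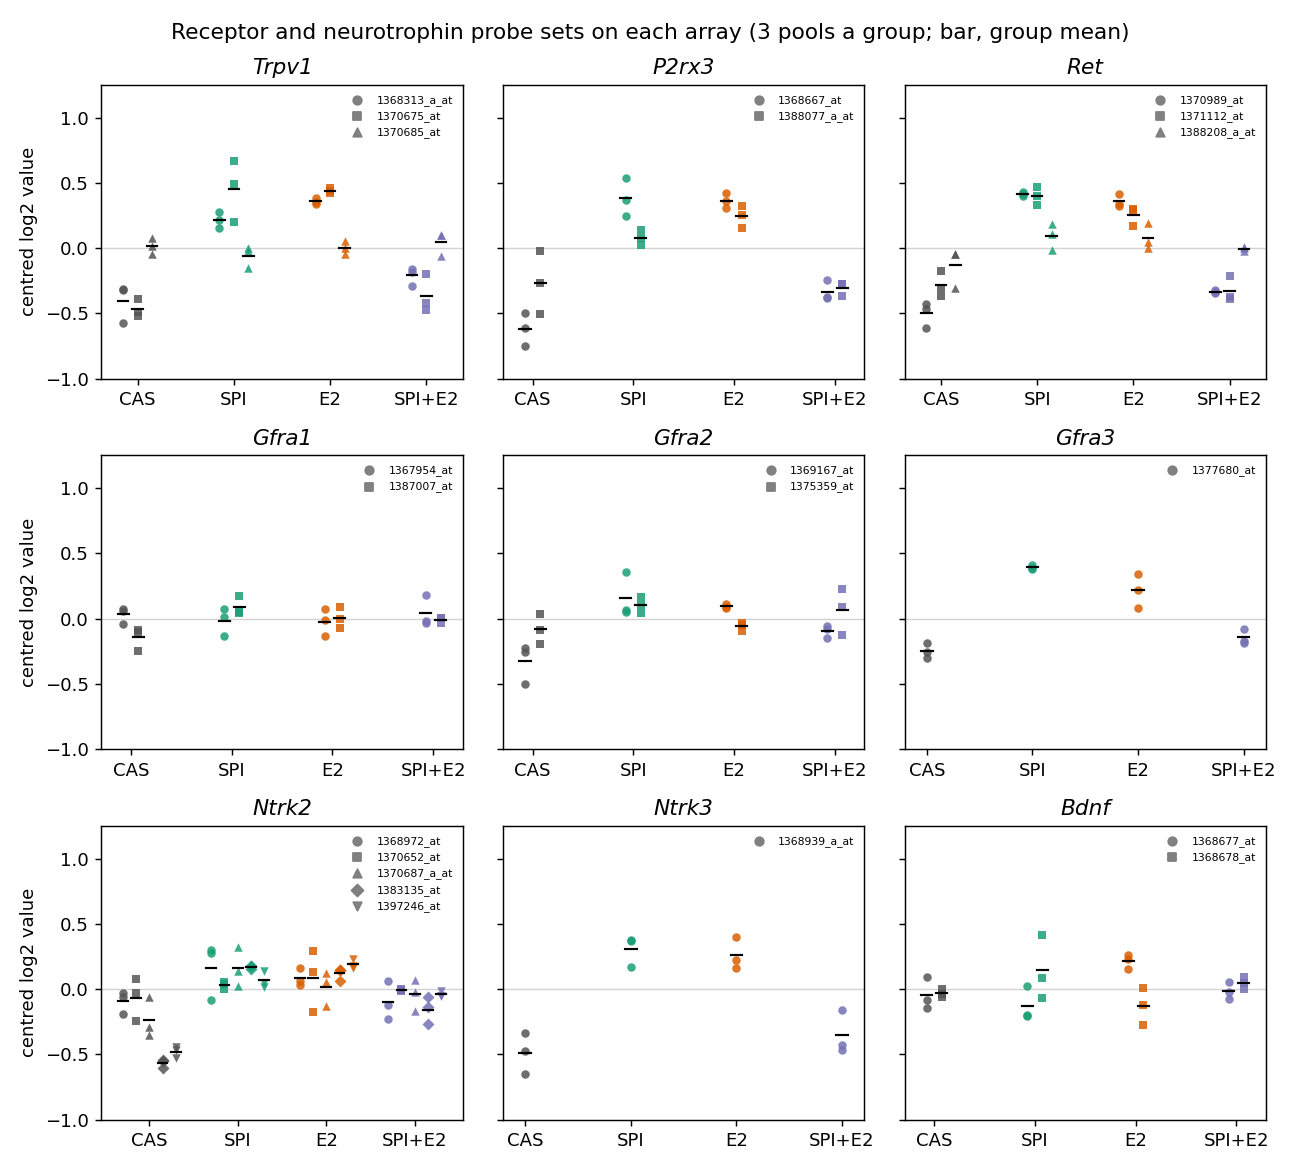
Centred log2 values (vertical axis) of the 21 probe sets of the 9 genes on each of the 12 arrays, by group (horizontal axis); symbols separate the probe sets of a gene and bars are means of 3 arrays. In Trpv1, P2rx3, Ret, Gfra3 and Ntrk3 the SPI and E2 arrays of the responding probe sets lie above zero and the CAS and SPI+E2 arrays below it.

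Of the 2 ion channels, Trpv1 has 3 probe sets. Probe set 1370675_at of Trpv1 read -0.39, -0.49 and -0.52 on the CAS arrays, 0.20, 0.49 and 0.67 with SPI, 0.44, 0.46 and 0.42 with E2, and -0.42, -0.48 and -0.20 with SPI+E2. The SPI and E2 arrays stood above all CAS and SPI+E2 arrays, and CAS and SPI+E2 overlapped. Trpv1 rose by 0.92 log2 units with SPI (1.89-fold, SE 0.105, adjusted p = 0.000105) and by 0.91 with E2 (1.87-fold, SE 0.105, adjusted p = 0.000155), and differed from CAS by 0.10 with SPI+E2 (adjusted p = 0.619). Probe set 1368313_a_at of Trpv1 rose by 0.62 with SPI (adjusted p = 0.000112) and 0.76 with E2 (adjusted p = 2.84e-05). The third, 1370685_at, lay between -0.15 and 0.10 on every array and did not pass in any comparison, so the probe sets of Trpv1 disagree.

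P2rx3 gave the largest change with SPI and with E2 of any of the 21 probe sets. Its probe set 1368667_at read -0.50, -0.61 and -0.75 on the CAS arrays, 0.54, 0.37 and 0.24 with SPI, 0.36, 0.31 and 0.42 with E2, and -0.37, -0.38 and -0.24 with SPI+E2. The SPI+E2 arrays stood between the CAS arrays and the others without overlap on either side. P2rx3 rose by 1.0 log2 units with SPI (2.0-fold, SE 0.0835, adjusted p = 9.09e-06) and by 0.98 with E2 (1.98-fold, SE 0.0835, adjusted p = 1.4e-05). With SPI+E2 it was 0.29 above CAS and missed the threshold (adjusted p = 0.0565), and it passed without SPI array 1 (adjusted p = 0.03) or without SPI array 3 (adjusted p = 0.0412). The change stayed at 0.29 in both, since SPI arrays enter this test only through the spread estimated over all arrays.

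The other P2rx3 probe set, 1388077_a_at, read -0.50, -0.27 and -0.03 in CAS, a wider spread than in any other group. It rose by 0.51 with E2 (SE 0.0979, adjusted p = 0.00546) and by 0.35 with SPI (adjusted p = 0.0304). The call with SPI was lost without CAS array 1 (change 0.23, adjusted p = 0.103), CAS array 2 (adjusted p = 0.0732), SPI array 1 (adjusted p = 0.0682) or SPI array 2 (adjusted p = 0.0911).

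Among the GDNF family receptors, the kinase Ret had the smallest p-value with SPI of all 21 probe sets. Its probe set 1370989_at read -0.47, -0.61 and -0.43 on the CAS arrays, 0.41, 0.40 and 0.43 with SPI, 0.34, 0.32 and 0.42 with E2, and -0.32, -0.35 and -0.34 with SPI+E2. The SPI and E2 arrays overlapped, and the SPI+E2 arrays lay just above the CAS arrays. Ret rose by 0.92 log2 units with SPI (1.89-fold, SE 0.0543, adjusted p = 6.04e-07) and by 0.86 with E2 (1.81-fold, SE 0.0543, adjusted p = 1.86e-06), and was 0.17 above CAS with SPI+E2 (adjusted p = 0.0854). Probe set 1371112_at of Ret rose by 0.68 with SPI (adjusted p = 4.87e-05) and by 0.54 with E2 (adjusted p = 0.00038). Probe set 1388208_a_at of Ret did not pass, at 0.22 with SPI (adjusted p = 0.0801) and 0.21 with E2 (adjusted p = 0.155).

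The artemin co-receptor Gfra3, with the single probe set 1377680_at, read -0.30, -0.19 and -0.25 on the CAS arrays, 0.38, 0.39 and 0.41 with SPI, 0.22, 0.34 and 0.08 with E2, and -0.18, -0.17 and -0.08 with SPI+E2. Its SPI arrays lay above its E2 arrays. Gfra3 rose by 0.64 with SPI (1.56-fold, SE 0.0653, adjusted p = 4.47e-05) and by 0.46 with E2 (1.38-fold, adjusted p = 0.000631), and was 0.10 above CAS with SPI+E2 (adjusted p = 0.376).

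The neurturin co-receptor Gfra2, on probe set 1369167_at, read -0.50, -0.26 and -0.23 on the CAS arrays, 0.36, 0.05 and 0.07 with SPI, 0.08, 0.09 and 0.12 with E2, and -0.08, -0.15 and -0.05 with SPI+E2. SPI array 1 stood above the rest. Gfra2 rose by 0.49 with SPI (1.40-fold, SE 0.0886, adjusted p = 0.0028) and by 0.42 with E2 (1.34-fold, adjusted p = 0.00929), and its other probe set, 1375359_at, did not pass (0.19 with SPI, adjusted p = 0.159, and 0.02 with E2, adjusted p = 0.933).

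The GDNF co-receptor Gfra1 changed least of the GDNF family receptors. On probe set 1387007_at it read -0.10, -0.24 and -0.08 in CAS, 0.05, 0.17 and 0.05 with SPI, 0.09, -0.07 and 0.00 with E2, and -0.03, 0.00 and 0.01 with SPI+E2. It rose by 0.23 with SPI (1.18-fold, SE 0.0608, adjusted p = 0.0202), a call lost without CAS array 2 (0.18, adjusted p = 0.0804) or SPI array 2 (0.19, adjusted p = 0.0761). With E2 it was 0.15 above CAS (adjusted p = 0.186), and probe set 1367954_at of Gfra1 was within 0.06 of CAS in all 3 treated groups (adjusted p = 0.724, 0.789 and 0.955).

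Of the neurotrophin receptors, Ntrk2 was the only one of the 9 genes raised in all 3 treated groups. Its probe set 1383135_at read -0.55, -0.61 and -0.54 on the CAS arrays, 0.18, 0.18 and 0.15 with SPI, 0.15, 0.15 and 0.06 with E2, and -0.13, -0.27 and -0.06 with SPI+E2. The CAS arrays stood apart below all others. Ntrk2 rose by 0.74 with SPI (1.67-fold, SE 0.0571, adjusted p = 5.27e-06), by 0.69 with E2 (1.61-fold, adjusted p = 1.18e-05) and by 0.41 with SPI+E2 (1.33-fold, adjusted p = 0.00121).

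Probe set 1397246_at of Ntrk2 read -0.45, -0.46 and -0.53 in CAS, 0.02, 0.14 and 0.04 with SPI, 0.16, 0.18 and 0.23 with E2, and -0.05, -0.05 and -0.02 with SPI+E2. It rose by 0.55, 0.67 and 0.44 in the 3 treated groups (SE 0.0496 for each, adjusted p = 1.77e-05, 5.29e-06 and 0.000327). Of its other 3 probe sets, 1370687_a_at rose with SPI (0.40, adjusted p = 0.0194), a call lost without CAS array 1 (0.37, adjusted p = 0.0715), CAS array 3 (0.34, adjusted p = 0.0813) or SPI array 2 (0.32, adjusted p = 0.0743). Probe set 1368972_at of Ntrk2 was 0.26 above CAS with SPI (adjusted p = 0.112) and passed without SPI array 2 (0.38, adjusted p = 0.0151), and 1370652_at lay 0.09 above CAS with SPI (adjusted p = 0.596). Ntrk2 is known to be made as a full-length kinase receptor and as a truncated form without the kinase domain, and which form each probe set reads was not determined here.

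Ntrk3, with the single probe set 1368939_a_at, read -0.65, -0.48 and -0.33 on the CAS arrays, 0.37, 0.37 and 0.17 with SPI, 0.16, 0.22 and 0.40 with E2, and -0.43, -0.16 and -0.47 with SPI+E2. The SPI and E2 arrays overlapped, and so did the CAS and SPI+E2 arrays. Ntrk3 rose by 0.79 with SPI (1.73-fold, SE 0.104, adjusted p = 0.000308) and by 0.75 with E2 (1.68-fold, adjusted p = 0.000579), and was 0.13 above CAS with SPI+E2 (adjusted p = 0.482).

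Bdnf, the only ligand among the 9 genes, did not follow the receptors. Its probe set 1368677_at read -0.14, -0.08 and 0.09 in CAS, -0.20, 0.03 and -0.20 with SPI, 0.15, 0.26 and 0.23 with E2, and 0.06, -0.03 and -0.08 with SPI+E2. The E2 arrays lay above those of every other group. It was 0.26 above CAS with E2 and missed the threshold (SE 0.0784, adjusted p = 0.0611), and it passed without CAS array 3 (0.33, adjusted p = 0.0299) or SPI array 2 (adjusted p = 0.0351). Without SPI array 2 the change stayed at 0.26, since that array enters this test only through the spread estimated over all arrays. The other Bdnf probe set, 1368678_at, was 0.17 above CAS with SPI (adjusted p = 0.3) and -0.10 with E2 (adjusted p = 0.699), the opposite signs.

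**Figure D2:**
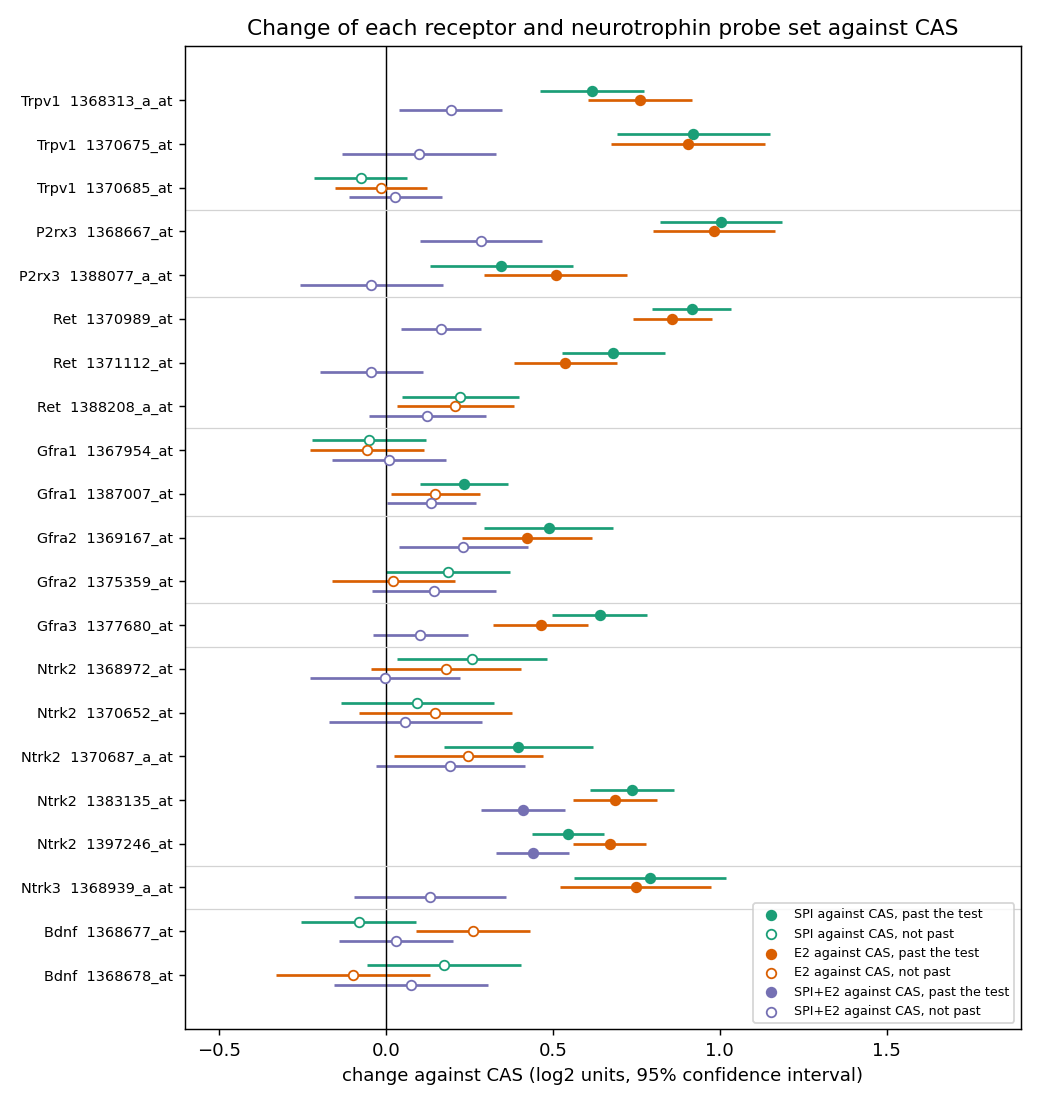
Change of each of the 21 probe sets against CAS in log2 units (horizontal axis) with 95% confidence intervals from limma over 12 arrays, for SPI, E2 and SPI+E2; filled points passed an adjusted p under 0.05. With SPI 13 points are filled and with E2 11, all to the right of zero, and with SPI+E2 the 2 filled points are both of Ntrk2.

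Whether the change with E2 differed between the diets was addressed by the interaction, the change with E2 on the SPI diet minus that on the casein diet. It passed the test as negative for 11 of the 21 probe sets, in 7 genes, and as positive for 0, where 9.92% of all probe sets passed and 5.75% passed as negative. The median interaction of the 21 probe sets was -0.68 log2 units, and over all probe sets it was 0.04. The largest were -1.73 for Trpv1 probe set 1370675_at (SE 0.148, adjusted p = 1.03e-05), -1.70 for P2rx3 1368667_at (SE 0.118, adjusted p = 1.86e-06) and -1.61 for Ret 1370989_at (SE 0.0768, adjusted p = 1.1e-07). Ntrk3 followed at -1.41, Gfra3 was at -1.0 and Ntrk2 1383135_at at -1.01. Gfra1 and Bdnf did not pass (lowest of their 4 probe sets -0.25, adjusted p = 0.107). Without SPI array 1, 12 probe sets passed.

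On the SPI diet E2 lowered 9 probe sets and raised 0, where 11.4% of all probe sets passed and 5.83% passed as lower. Ret 1370989_at fell by 0.75 (SE 0.0543, adjusted p = 4.59e-06), Trpv1 1370675_at fell by 0.82 (adjusted p = 0.000316), P2rx3 1368667_at fell by 0.72 (adjusted p = 0.000161), Ntrk3 fell by 0.66 (adjusted p = 0.00143) and Gfra3 fell by 0.54 (adjusted p = 0.000221). The SPI+E2 arrays lay below all SPI arrays in 12 probe sets and above them in 0. A split in one direction or the other was seen in 26.1% of all probe sets. Without SPI array 1 the count of lowered probe sets was 8. The fall of P2rx3 1388077_a_at (by 0.39, adjusted p = 0.0239) was lost without SPI array 1 (adjusted p = 0.0549), SPI array 2 (adjusted p = 0.0804), SPI+E2 array 1 (adjusted p = 0.053), SPI+E2 array 2 (adjusted p = 0.0799) or SPI+E2 array 3 (adjusted p = 0.0528).

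Against E2 alone, the combination lowered 10 probe sets and raised 0, where 10.5% of all probe sets passed and 5.53% passed as lower. Of the 21 probe sets, 12 lay wholly below E2 and 0 wholly above (32.1% of all were split in one direction or the other). Trpv1 1370675_at fell by 0.81 (adjusted p = 0.000607) and P2rx3 1368667_at fell by 0.70 (adjusted p = 0.000369). Ntrk2 was lowered less, by 0.28 on 1383135_at (adjusted p = 0.0101) and by 0.23 on 1397246_at (adjusted p = 0.0125, and 0.0556 without E2 array 3).

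**Figure D3:**
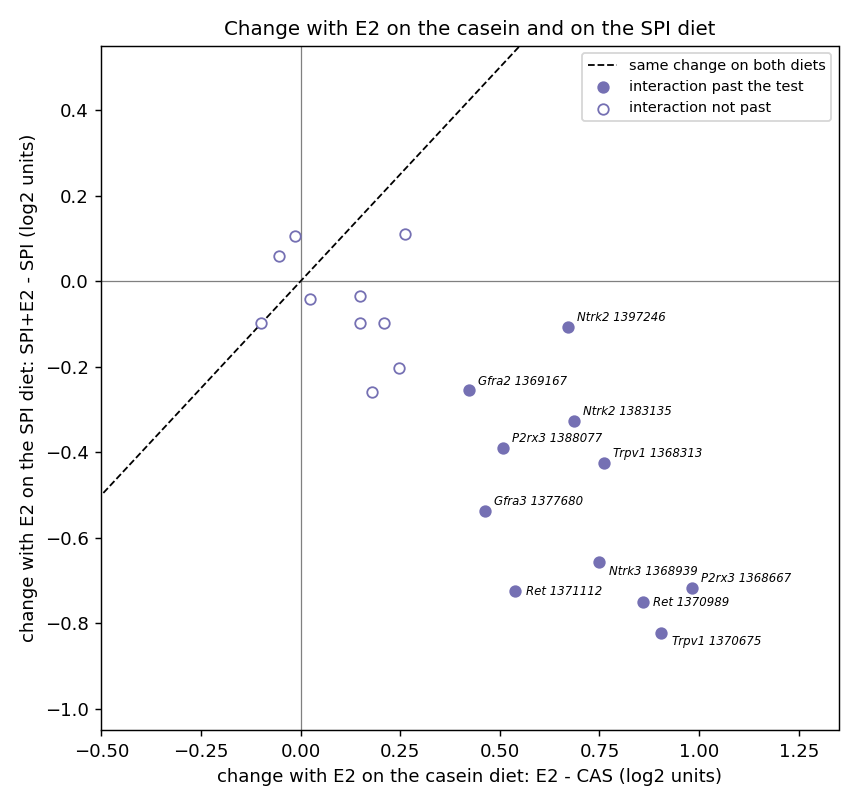
Change with E2 on the casein diet (E2 minus CAS, horizontal axis) against change with E2 on the SPI diet (SPI+E2 minus SPI, vertical axis), in log2 units, for the 21 probe sets; filled points passed the interaction test and the dashed line marks equal changes. The 11 filled points lie to the right of zero and below it, with a positive change on casein and a negative change on SPI.

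SPI and E2 alone differed in 1 of the 21 probe sets, where 16.7% of all probe sets passed. That was Bdnf 1368677_at, which was lower with SPI than with E2 (difference -0.34, SE 0.0784, 95% interval -0.51 to -0.17, adjusted p = 0.0114). Bdnf 1368678_at had the opposite sign, 0.27 (adjusted p = 0.102), and passed without SPI array 3 (0.38, adjusted p = 0.0252). For the receptors the difference of SPI minus E2 was 0.02 for P2rx3 1368667_at (95% interval -0.16 to 0.20), 0.02 for Trpv1 1370675_at (-0.21 to 0.25), 0.06 for Ret 1370989_at (-0.06 to 0.18), 0.05 for Ntrk2 1383135_at (-0.07 to 0.18) and 0.04 for Ntrk3 (-0.18 to 0.27). Other probe sets lay farther from zero, with arrays that did not overlap. They were Ntrk2 1397246_at at -0.12 (interval -0.23 to -0.02, adjusted p = 0.113), Trpv1 1368313_a_at at -0.14 (-0.30 to 0.01, adjusted p = 0.197), P2rx3 1388077_a_at at -0.16 (-0.38 to 0.05, adjusted p = 0.289), Ret 1371112_at at 0.14 (-0.01 to 0.30, adjusted p = 0.194) and Gfra2 1375359_at at 0.16 (-0.02 to 0.35, adjusted p = 0.214). Gfra3 was 0.18 higher with SPI (interval 0.03 to 0.32, adjusted p = 0.0892) and passed without E2 array 2 (0.24, adjusted p = 0.0303). These intervals leave room for differences of up to the sizes given. The 3 arrays of SPI and E2 did not overlap in 8 probe sets, 4 in each direction, against 33.9% of all probe sets.

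Beside the 9 genes, 4 lists of genes of the same pathways were described by gene means, of which 25.4% passed over all genes with SPI, 14.2% with E2 and 12.9% in the combined group. In the same order, 10.7%, 6.98% and 5.8% of all genes rose and 14.6%, 7.23% and 7.06% fell. Of 5 measured ligands, 0 passed with SPI and 0 with E2, and their median changes were -0.05 in both. With SPI+E2, neurotrophin-3 (Ntf3), the ligand of Ntrk3, rose by 0.21 (SE 0.0542, adjusted p = 0.0238), from 0.04, -0.06 and -0.13 on the CAS arrays to 0.13, 0.16 and 0.20. It differed from CAS by -0.01 with SPI and 0.03 with E2. The ligand Gdnf was -0.05, 0.03 and 0.17 from CAS in SPI, E2 and SPI+E2 and did not pass.

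Of 8 other receptors of these ligands, 2 rose with SPI, 1 with E2 and 1 in the combined group, and 0 fell. Over all genes 25.4%, 14.2% and 12.9% passed, and these counts are too few to read against those shares. Ngfr, the low-affinity receptor of all neurotrophins, read -0.54, -0.42 and -0.45 in CAS, 0.59, 0.53 and 0.53 with SPI, 0.21, 0.26 and 0.38 with E2, and -0.21, -0.27 and -0.25 with SPI+E2. No 2 of its groups overlapped. Over CAS, Ngfr rose by 1.02 with SPI, by 0.75 with E2 and by 0.23 in the combined group (adjusted p = 1.15e-07, 1.78e-06 and 0.014). It was 0.26 higher with SPI than with E2 (SE 0.0513, adjusted p = 0.0031), and its interaction was -1.55 (adjusted p = 4.76e-08). Lingo1, a partner of Ngfr in its receptor complex, rose by 0.28 with SPI (adjusted p = 0.0349).

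The adaptors and effectors that carry the signal from Ret and the Trk receptors had small median changes as a list. Of 18 measured, 1 rose and 4 fell with SPI, 1 rose and 0 fell with E2, and 0 rose and 2 fell with SPI+E2, with medians of -0.01, 0.01 and -0.02. Over all genes 25.4%, 14.2% and 12.9% passed and 14.6%, 7.23% and 7.06% fell. The counts of the adaptors are too few to read against those shares. Dok5, a docking protein of Ret and the Trk receptors, fell by 0.51 with SPI (adjusted p = 8.91e-05), from 0.10, 0.11 and 0.15 in CAS to -0.54, -0.29 and -0.34, and was 0.02 from CAS with E2 (adjusted p = 0.923). Sh2b2, a Trk adaptor, fell by 0.51 with SPI (adjusted p = 0.000619), and Spry1, an inhibitor of receptor tyrosine kinase signalling, fell by 0.20 (adjusted p = 0.0128). The other 2 calls with SPI, named after their values were seen, were Ptpn11, a phosphatase (-0.16, adjusted p = 0.0362), and the scaffold Gab1 (0.14, adjusted p = 0.0496), and Gab1 was also the call with E2 (0.15, adjusted p = 0.0453).

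Of 26 other channels and receptors of sensory neurons, 7 rose and 1 fell with SPI, and 3 rose and 0 fell with E2. With SPI+E2, 2 rose and 2 fell, and the medians in this order were 0.07, 0.05 and 0.07. Over all genes 25.4%, 14.2% and 12.9% passed, and 10.7%, 6.98% and 5.8% rose. The counts that passed with E2 and with SPI+E2 were near those shares. The 3 of the 26 whose largest change in any treated group was greatest rose with both treatments alone. Htr3b, a subunit of the serotonin-gated channel, rose by 0.71 with SPI and by 0.68 with E2 (adjusted p = 9.56e-06 and 1.69e-05), the acid-sensing channel Asic3 by 0.63 and 0.64 (adjusted p = 0.000204 and 0.000216), and the serotonin-gated channel subunit Htr3a by 0.47 and 0.64 (adjusted p = 0.0081 and 0.00163). With SPI+E2, Htr3b stayed higher than CAS (0.27, adjusted p = 0.0149), while Asic3 (0.16, adjusted p = 0.24) and Htr3a (0.08, adjusted p = 0.667) did not pass. Their interactions were -1.12, -1.11 and -1.02.

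Most markers of sensory neurons, of all neurons and of the cells that sheathe axons rose with SPI and with E2, as the receptors did. Those of sympathetic neurons did not. The part of these markers in the results was not tested, and the lists were chosen with earlier results of these data known. The median difference of SPI minus E2 was 0.04 for the 9 genes and 0.07 for sensory neuron markers. It was 0.23 for markers of all neurons, 0.18 for those of Schwann cells and satellite glia, and 0.01 over all genes. The mean of the 9 genes lay between -0.30 and -0.23 on the CAS arrays, 0.15 and 0.22 with SPI, 0.15 and 0.17 with E2, and -0.15 and -0.13 with SPI+E2. The mean of 13 sensory neuron markers lay between -0.35 and -0.32, 0.24 and 0.30, 0.24 and 0.26, and -0.23 and -0.20 in the same order. Of these 13, which include the sodium channels Scn9a, Scn10a and Scn11a, peripherin (Prph) and the neuropeptides Calca and Tac1, 11 rose with SPI, 10 with E2 and 3 in the combined group, and 0 fell, where 10.7%, 6.98% and 5.8% of all genes rose. Their median changes were 0.81, 0.74 and 0.12. Since the values are centred, whether any marker is at background could not be read.

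Over all genes 14.6% fell with SPI, 7.23% with E2 and 7.06% in the combined group, and the shares that rose are those just given. Of 16 markers of all neurons, 15 rose with SPI, 13 with E2 and 11 in the combined group (medians 0.99, 0.63 and 0.20), and their mean lay between -0.41 and -0.36 in CAS, 0.42 and 0.44 with SPI, 0.13 and 0.17 with E2, and -0.20 and -0.14 with SPI+E2. Of 11 markers of Schwann cells and satellite glia, 9 rose with SPI and 7 with E2, and with SPI+E2 0 rose and 2 fell (medians 0.68, 0.39 and -0.04), with means between -0.20 and -0.16, 0.37 and 0.42, 0.17 and 0.19, and -0.24 and -0.21. The 11 markers of central glia went another way, with 7 higher with SPI, 4 lower with E2 and 2 lower with SPI+E2 (medians 0.69, -0.22 and -0.19). Their mean lay between 0.01 and 0.10 in CAS, 0.57 and 0.61 with SPI, -0.49 and -0.37 with E2, and -0.15 and -0.02 with SPI+E2.

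The 10 markers of sympathetic neurons, the other nerve supply of bone, rose in 2 cases with SPI, fell in 2 with E2 and rose in 8 with SPI+E2 (medians 0.06, -0.07 and 0.81), and their mean lay between -0.12 and -0.03, -0.06 and 0.16, -0.31 and -0.11, and 1.04 and 1.14. The mean of the sympathetic markers was highest on the SPI+E2 arrays. Outside nerve, the counts below are in the order SPI, E2 and the combined group, against the 14.6%, 7.23% and 7.06% of all genes that fell. Of 10 bone cell markers 0 rose in any treated group and 3, 0 and 3 fell, too few to read against those shares. Of 10 growth plate markers 7, 4 and 7 fell and 1, 0 and 1 rose. Of 11 skeletal muscle markers 7, 0 and 0 fell and 0, 1 and 1 rose. Of 9 erythroid markers 7, 9 and 8 fell and 0 rose.

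**Figure D4:**
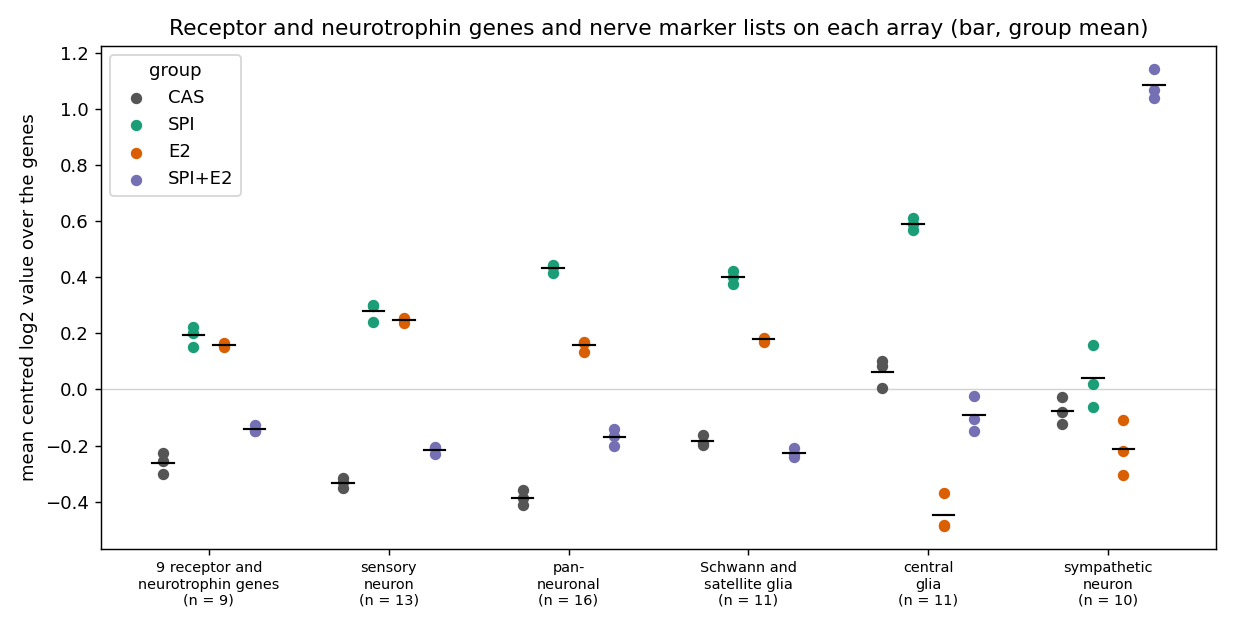
Mean centred log2 value (vertical axis) of the 9 receptor and neurotrophin genes and of 5 nerve marker lists on each of the 12 arrays, coloured by group; n is the number of genes measured and bars are means of 3 arrays. Sensory neuron, pan-neuronal and Schwann cell markers lie higher with SPI and E2 than with CAS or SPI+E2, whereas sympathetic markers lie between 1.04 and 1.14 with SPI+E2 and below 0.17 elsewhere.

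For the 7 genes of the 9 whose gene mean passed the F test, the genes with the closest 12 values were found by the root mean square difference of gene means, as a description over 12 arrays that share their groups. For Ret they were Atl1 (0.0494 log2 units), Ccdc92 (0.0495) and Dync1i1 (0.0617), and for Trpv1 they were Gabarapl1 (0.0561), Ttll7 (0.062) and Ndrg1 (0.068). For Ntrk2 they were Gap43 (0.0556), Tspan8 (0.058) and Mapt (0.0582), for Gfra2 Tmem229b (0.0654), Tmem45b (0.0668) and Nhsl3 (0.0671), and for Gfra3 Fam89a (0.0688), Ctnnd2 (0.0783) and Tubb2a (0.0833). For P2rx3 they were Tmem176b (0.0898), Ppp1r1c (0.0981) and Htr3b (0.0995), and for Ntrk3 Scn11a (0.116), Tmem59l (0.122) and Fxyd7 (0.123). Among the 9 genes themselves the closest pair was Trpv1 and Ret (0.0862), then Ret and Gfra3 (0.0954), and the farthest was Gfra1 and Ntrk3 (0.366). The differences are not scaled and gene means average probe sets that can disagree, so closeness also reflects the size of a change.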

How the data were processed

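Affymetrix Rat Genome 230 2.0 arrays were read for 12 pools, 3 for each of CAS, SPI, E2 and SPI+E2, grouped by the sample labels. Per the study's methods, and GCOS and RMA in the submitters' processing notes, the authors made log2 values with RMA and normalized them per chip and per gene in GeneSpring 7.3; the deposited log2 values are centred on each probe set's median. Of 31099 probe sets, 57 controls were left out. The annotation gave 1 symbol for 20826, several for 436 and none for 9780, and gene means were taken over probe sets with 1 symbol.

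Group means were fitted over all 12 arrays (limma 3.58.1, R 4.3.3) with Benjamini-Hochberg adjustment over all probe sets or genes, and the steps were tested on simulated data. Named were the 9 genes, up to 3 genes of each pathway list with the largest called change against CAS, the 3 nearest genes of each gene past the F test, and Y-linked genes. The genes and lists were chosen with earlier results of these data known. Alternatives tried were a fit of the compared groups alone, a replicate block, quantile normalization, median subtraction, robust or no moderation, array weights, gene means, probe sets with 1 symbol, an adjusted p under 0.01, and leaving out each array. Upstream sequences are RefSeq's (GRCr8). Probe intensities were not used here.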

Additional observations from a re-analysis of the deposited data

Results flagged for a closer look

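The change with E2 differed between the casein and the SPI diet, by the interaction term of limma over 12 arrays, in 11 of the 21 probe sets. This term draws on the CAS arrays, on which Eif2s3y read low. The difference was -1.73 log2 units for Trpv1 1370675_at and -1.19 for Trpv1 1368313_a_at, -1.70 for P2rx3 1368667_at and -0.90 for P2rx3 1388077_a_at. It was -1.61 for Ret 1370989_at and -1.26 for Ret 1371112_at, -0.68 for Gfra2 1369167_at and -1.0 for Gfra3 1377680_at. For the neurotrophin receptors it was -1.01 for Ntrk2 1383135_at, -0.78 for Ntrk2 1397246_at and -1.41 for Ntrk3 1368939_a_at. Adjusted p-values of limma ran from 1.1e-07 (Ret 1370989_at) to 0.00413 (Gfra2 1369167_at). For Ntrk2 1397246_at the change with E2 was 0.67 on casein and -0.11 on SPI, and the second did not pass (adjusted p = 0.213), nor did that of Gfra2 1369167_at (-0.25, adjusted p = 0.0926).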

How the results depend on the processing

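No call among the 21 probe sets changed direction under the alternatives run, which does not cover changes near zero that did not pass. Counts of the 21 probe sets called kept within 1.5 times of those reported in every comparison but SPI against E2, which had 1 call. There the replicate block gave 2 (Bdnf 1368678_at, 0.27, adjusted p = 0.0391, was added), quantile normalization 2 (Trpv1 1368313_a_at, -0.23, adjusted p = 0.0379, was added), a threshold of 0.01 gave 0, and the mean per gene gave 0 of 9 genes. The block changed no other call of these 21 probe sets. Leaving out 1 array at a time gave 11 to 13 calls for SPI, 11 to 12 for E2 and 2 to 3 for SPI+E2 against CAS, 1 to 2 for SPI against E2, 8 to 9 and 9 to 10 for SPI+E2 against SPI and E2, 11 to 12 for the interaction and 11 to 13 for the F test. Whether pool numbers pair the samples was not settled by the residual correlations between arrays of different groups. Same-numbered arrays had correlations from -0.0741 to 0.244 (median 0.0439), with 4 of 18 pairs over 0.1. Arrays of other numbers had correlations from -0.230 to 0.202 (median -0.0149), with 3 of 36 pairs over 0.1. Of the 12 arrays, 4 correlated best with their own number. Fitted on the 2 groups alone, the SPI calls of P2rx3 1388077_a_at (adjusted p = 0.0967) and Gfra1 1387007_at (0.0665) were lost, and without moderation that of P2rx3 1388077_a_at (0.0676). Bdnf 1368677_at passed for E2 with quantile normalization (0.30, adjusted p = 0.0323), array weights (0.0385) and 1-symbol probe sets (0.0493), and P2rx3 1368667_at for SPI+E2 with array weights (0.0391) and 1-symbol probe sets (0.0476). The cause was not tested. Centred values hold no measure of signal over background, so what dim signal limits is unknown.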

Other observations

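Probe set 1369370_s_at, which the annotation gives to both Trpv1 and Trpv4 and which therefore counts for neither, read 0.03, -0.03 and -0.06 in CAS, 0.25, 0.21 and 0.12 with SPI, -0.22, -0.06 and -0.11 with E2, and 0.28, 0.37 and -0.06 with SPI+E2. Against CAS it did not pass in any group. It was 0.33 higher with SPI than with E2 (limma adjusted p = 0.0359) and 0.33 higher with SPI+E2 than with E2 (adjusted p = 0.0487). Among genes with 1 symbol, Trpv4, a channel opened by osmotic and mechanical stimuli that cartilage cells also carry, was 0.26 higher with SPI than with E2 (adjusted p = 0.0119), and it was named after its value was seen.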
